A study of Mus musculus with 8 samples.

Results

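The members are the 77 genes of the deposited list of 27998 whose symbols begin with Mrpl or Mrps followed by a digit, the mouse names for proteins of the mitochondrial ribosome. The members were chosen by symbol, and their levels by day and genotype, which are part of the same rule, are given as a description without a test. Single YFP-sorted microglia of the lumbar spinal cord were sequenced in 8 libraries from young adult C57BL/6 mice. The control libraries were from Cx3cr1-yfp-creER/+ animals and the A20 cKO libraries from Cx3cr1-yfp-creER/+; Tnfaip3 fl/fl animals, in each genotype naive and 1, 2 and 3 days after bilateral sciatic nerve transection. All animals thus carried YFP and the tamoxifen-inducible Cre from 1 Cx3cr1 allele, a locus active in microglia and in other macrophages, and per the study's methods recombination was induced with tamoxifen before the experiment. The labels call 1 group of each genotype naive, while the protocol field names the transection for every sample, and the naive animals are taken here as uninjured. Cords of 3 animals were pooled for each library, so each group was 1 library without a replicate, and no test between groups was possible. The comparisons ask how the messages for this ribosome stood in microglia on the days after nerve injury, and whether they stood alike with and without A20, the ubiquitin-editing enzyme that Tnfaip3 encodes.

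Mitochondria carry a small genome of their own, and a dedicated ribosome translates its few messages into core subunits of the respiratory chain and the ATP synthase. The RNA of this ribosome is made in the organelle, while all its proteins are encoded in the nucleus, made in the cytosol and imported, so its assembly needs a joint supply from both genomes. The small subunit reads the message and the large subunit forms the peptide bond, and beside proteins with bacterial relatives each holds proteins found only in mitochondria.

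Promoters are shown for members at least 1.5-fold higher 1 day after injury in both genotypes, to let the DNA in front of these genes be seen beside their levels. RefSeq windows on GRCm38.p6 were matched for 68 members. Only bases before the start that lie in no GENCODE M21 exon are printed, which left 226 bases for Mrpl12 (chr11:120484387-120484612, plus strand), 170 for Mrps12 (chr7:28741822-28741991, minus strand) and 184 for Mrps6 (chr16:92058086-92058269, plus strand). The window of Mrps18b lay entirely in an exon of Ppp1r10, which begins next to it on the other strand, and is not printed, and Mrpl38 is named only. Capitals mark the letters CCAAT, on either strand.
Mrpl12: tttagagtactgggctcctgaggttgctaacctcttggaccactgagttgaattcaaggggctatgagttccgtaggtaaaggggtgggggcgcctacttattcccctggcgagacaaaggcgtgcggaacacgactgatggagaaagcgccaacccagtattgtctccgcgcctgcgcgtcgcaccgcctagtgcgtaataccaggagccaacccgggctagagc
Mrps12: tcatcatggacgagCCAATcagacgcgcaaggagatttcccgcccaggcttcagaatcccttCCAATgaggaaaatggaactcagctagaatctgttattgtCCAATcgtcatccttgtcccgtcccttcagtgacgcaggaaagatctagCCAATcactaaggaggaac
Mrps6: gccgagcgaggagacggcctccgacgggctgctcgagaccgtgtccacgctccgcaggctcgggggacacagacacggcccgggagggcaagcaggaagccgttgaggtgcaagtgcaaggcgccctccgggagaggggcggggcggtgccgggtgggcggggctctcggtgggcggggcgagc
Mrps12 held CCAAT 4 times, starting 156, 108, 68 and 19 bases before its start, and its upstream neighbour on the opposite strand is Sars2, the mitochondrial seryl-tRNA synthetase. Mrpl12 and Mrps6 held none of the 5 motifs searched on both strands of the 250 bases before the start. In the 74 windows of the 68 members the ETS-type letters CCGGAAG were found in 17, which is 23%, against 6.91% of all 32851 windows. The NRF1-type letters CATGCGC was found in 10.8% against 3.24%, the E-box CACGTG in 9.46% against 6.02%, the YY1-type letters GATGGCG in 2.70% against 2.18% and CCAAT in 37.8% against 33.8%. The 4 printed matches share no bases with one another, and the windows of the members had a median GC content of 58.4% against 52.4% in all windows. A match is a run of letters and not a bound site.

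After the filter on cells, 14626 of 14883 barcodes were kept, 558 to 3585 per library, with a median of 2780 to 4274 unique molecular identifiers (UMIs, one per captured RNA molecule) per cell. The level of a gene is its UMI sum in a library per 1000000 UMIs of that library (CPM), so it is a share of the captured RNA and does not give the amount per cell. Tnfaip3 was read at 6.83 to 25.3 CPM in the control and 42.3 to 67.7 CPM in the A20 cKO libraries. Its 3′ tag need not lie in the floxed part, so these values do not check the deletion. Of the microglial markers, Tmem119 was found in 96.2% to 100% and P2ry12 in 90.1% to 100% of the cells by library, and Fcrls in 26.7% (A20 cKO day 3) to 97.6% (control day 1). Control day 3 and all A20 cKO libraries, here named the linked libraries, had 256 cell barcodes in common over their 10 pairs, against 98 over the 15 pairs of a linked with another library and 27 over the 3 pairs of the others. Per 1000000 possible pairs of cells that was 13.2 (5.41 to 67.6 by pair), 1.77 (0.797 to 8.83) and 1.67 (1.48 to 2.29). Oligodendrocyte genes, 5 of 5 with UMIs in every library, summed to 149 to 202 CPM in the linked libraries and 60.1 to 83.3 CPM in the other 3. The choroid and ependymal genes Ttr and Foxj1 together reached 126 to 397 CPM in the linked libraries, and Ttr was at 0 in the other 3. Monocyte genes were at 24.4 to 83.7 CPM against 1.85 to 3.70, astrocyte genes at 7.82 to 26.0 against 2.13 to 3.16 and neuron genes at 2.69 to 9.25 against 0.925 to 1.71. Of the monocyte genes, Ccr2 did not divide in this way, at 0.330 to 2.36 CPM in the linked libraries and 0.632 to 1.85 in the others. In A20 cKO day 2 Ccr2 was at 0.330 CPM and Ly6c2 at 0, so its sum of 83.7 came almost wholly from Plac8. The part of all these genes in the differences below was not tested, and comparisons across this division are given apart.

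All 77 members had UMIs in every library. Summed over all members, 6790 to 87192 UMIs per library were counted, the fewest in control naive, which limits every comparison with that library. The summed level was 4190.1 CPM (4091 to 4291, 95% interval) in naive control microglia, then 4974 (4938 to 5011), 5512 (5476 to 5549) and 4003 CPM (3957 to 4049) at days 1, 2 and 3. Naive A20 cKO microglia stood at 3741 CPM (3700.5 to 3781), followed by 4540.0 (4464 to 4617), 4304 (4231 to 4379) and 3827 CPM (3751 to 3903). Both genotypes thus had their lowest or next to lowest level in the naive library, and by CPM the control had its highest on day 2 and the A20 cKO on day 1, an order that turned in A20 cKO with the TMM and median-of-ratios factors described below. Here and below, ranges after values are 95% intervals that cover counting error only and say nothing of differences between animals.

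**Figure D1:**
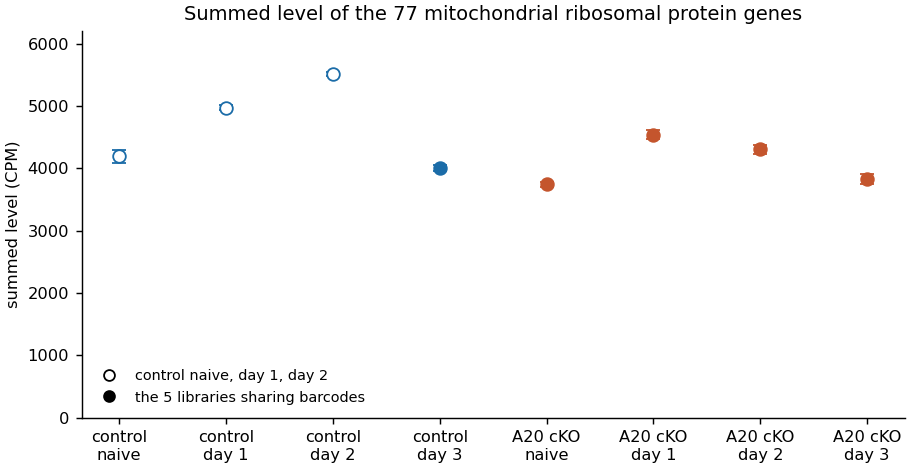
Summed level of the 77 members in CPM (y axis, from 0) in the 8 libraries (x axis), with 95% exact Poisson intervals for counting error, open for control naive, day 1 and day 2 and filled for the linked libraries. The highest point is control day 2 at 5512 CPM and the lowest A20 cKO naive at 3741 CPM.

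Mean levels of single members over the 8 libraries ran from 4.90 to 272 CPM with a median of 50.7. UMIs count 3′ ends of messages, so these levels were not divided by length, and the order of the genes is that of captured tags. Mrpl52, a large subunit protein found only in mitochondria, had the highest mean level. Its control levels, naive to day 3, were 280, 313, 336 and 247 CPM, and its A20 cKO levels were 202, 299, 273 and 225 CPM. Its level was lowest in A20 cKO naive and highest in control day 2. The next in order were Mrps14 (mean 119 CPM), Mrps33 (113), Mrps17 (108) and Mrpl33 (108), of which Mrps14, Mrps17 and Mrpl33 have bacterial relatives. The lowest were Mrpl53 with a mean of 4.90 CPM, Mrps6 with 10.1 and Mrps27, a small subunit protein of the RNA-binding pentatricopeptide family, with 10.5. Mrps27 lay between 6.86 and 12.7 CPM in all libraries. Of the 77 members, 46 were highest of all libraries in control day 2, 12 in control day 1 and none in control day 3, while 23 were lowest in A20 cKO naive and 20 in A20 cKO day 3. These counts set linked beside other libraries, and no share of all genes is given with them.

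In single cells the messages were spread thinly. With cells thinned to 2000 UMIs, which 13691 of the 14626 reached, the median cell held 7 to 11 UMIs of all members together, highest in control day 2, and 0 to 4 cells per library held none. The SD over cells was 2.91 to 3.50 UMIs per cell, where Poisson counting alone at the same means gives 2.74 to 3.30.

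On day 1 after injury the control microglia had more of most mitochondrial ribosomal protein messages than naive control microglia. The summed level was 0.25 log2 higher (0.21 to 0.28). Of the 76 members with at least 100 UMIs in both libraries together, 62 were above 0, against 40.5% of all genes. The median log2 ratio was 0.23 over these members and -0.13 over all 8866 genes tested. Counting intervals lay above 0 for 28 members and below 0 for 2, against 17.4% and 29.6% of all genes. At least 1.5-fold higher were 11 members (14.5%), against 10.6% of all genes, and 1 (1.32%) was at least 1.5-fold lower, against 21.4% of all genes. Measured from the median of all genes, 19 members were past 1.5-fold higher and 1 lower, against 14.2% and 15.3% of all genes. With TMM factors, which shifted all log2 ratios of this comparison by 0.24, 26 members (34.2%) were past 1.5-fold higher and none lower, against 18.9% and 11.5% of all genes. Beside this, from control naive to day 1 and day 2, the microglial marker P2ry12 was at 4026, 2680.1 and 2463 CPM. Sall1 was at 189, 88.1 and 93.0 CPM. The endothelial genes summed to 51.2, 16.9 and 13.5 CPM, with Cldn5 at 0 in all 3 libraries. Flt1 was also at 0 in control naive and day 1, so the sums of those libraries were Pecam1 alone. The part of these genes was not tested.

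Mrps18b (ENSMUSG00000024436, chromosome 17, 35910379 to 35916389, minus strand, GRCm38), 1 of 3 relatives of a bacterial small subunit protein, led the day 1 order. Its control levels, naive to day 3, were 42.0, 112, 78.0 and 38.3 CPM. The A20 cKO series was 38.6, 63.4, 46.5 and 39.7 CPM. It was thus highest on day 1 in both genotypes and on day 3 close to the naive level of its genotype. The log2 ratio of day 1 to naive was 1.41 (1.07 to 1.79) in control and 0.72 (0.45 to 0.98) in A20 cKO. Mrps6, the partner of that protein family in the bacterial small subunit, is a low gene whose control levels, naive to day 3, were 7.41, 19.7, 12.6 and 6.04 CPM, beside A20 cKO levels of 8.30, 14.5, 5.93 and 6.30 CPM. Its day 1 library was the highest of each genotype, with log2 ratios of 1.36 (0.58 to 2.38) and 0.81 (0.24 to 1.37). Mrps6 (chromosome 16, 92058270 to 92112227, plus strand) shares its strand and region with Slc5a3, a myo-inositol transporter, so its UMIs are uncertain. Mrps18b, Mrpl12 and Mrpl9 each overlap a gene on the opposite strand (Gm16279, Gm16755 and Oaz3), whose reads could be told apart only if strand was used in counting.

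Mrpl12 (chromosome 11, 120484613 to 120489065, plus strand) encodes the stalk protein of the large subunit that engages the translation factors. Its control levels, naive to day 3, were 82.7, 140, 143 and 60.2 CPM. Its A20 cKO levels were 53.0, 93.1, 72.8 and 64.5 CPM, so that control day 1 and day 2 were the highest and A20 cKO naive the lowest. The log2 ratio of day 1 to naive was 0.75 (0.50 to 1.02) in control and 0.81 (0.59 to 1.03) in A20 cKO, where it was the largest among members with a mean of at least 20 CPM. Mrpl10, which anchors the stalk, was at 21.6, 22.5 and 23.6 CPM in control naive, day 1 and day 2, with a day 1 ratio of 0.044 (-0.44 to 0.61).

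Mrps12 (chromosome 7, 28739641 to 28741820, minus strand) encodes a protein of the decoding centre of the small subunit. Its control levels, naive to day 3, were 52.5, 82.5, 87.1 and 49.1 CPM, and its A20 cKO levels 49.0, 77.9, 62.6 and 48.8 CPM. The day 1 libraries of both genotypes and control day 2 were the highest. The day 1 ratio was 0.65 (0.33 to 0.99) in control and 0.67 (0.43 to 0.90) in A20 cKO. Its neighbour Sars2, named here only because of its place, was at 4.15 to 12.7 CPM, too low for its day 1 ratios of 0.29 (-0.51 to 1.33) and 0.69 (-0.19 to 1.49) to be told from 0.

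Mrps30, a protein of the large subunit in spite of its name, had control levels, naive to day 3, of 28.4, 51.5, 37.7 and 33.1 CPM, a day 1 ratio of 0.84 (0.43 to 1.32). Its A20 cKO levels were 30.3, 41.3, 32.6 and 24.8 CPM, a day 1 ratio of 0.45 (0.13 to 0.76). Against the general direction, Mrpl9 (chromosome 3, 94443318 to 94451130, plus strand), a large subunit protein with a bacterial relative, was at 39.5 CPM in control naive and 22.5, 24.3 and 29.9 on days 1 to 3. Its day 1 ratio in control was -0.82 (-1.20 to -0.40), the lowest among members of at least 20 CPM. Mrpl9 was lower than naive on each day in A20 cKO as well, at 35.0, 29.7, 24.1 and 26.4 CPM, with an interval that includes 0 on day 1 (-0.23, -0.59 to 0.11). Mrpl27, also of the large subunit, was at 40.1 CPM in control naive and 30.7 on day 1, a ratio of -0.40 (-0.77 to 0.012), and at 31.1 and 40.3 CPM in A20 cKO naive and day 1, a ratio of 0.38 (0.056 to 0.69). The low Mrpl53, with 17 UMIs in control naive, was at 10.5 CPM there and 1.92 on day 1 and was under the minimum of 100 UMIs.

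**Figure D2:**
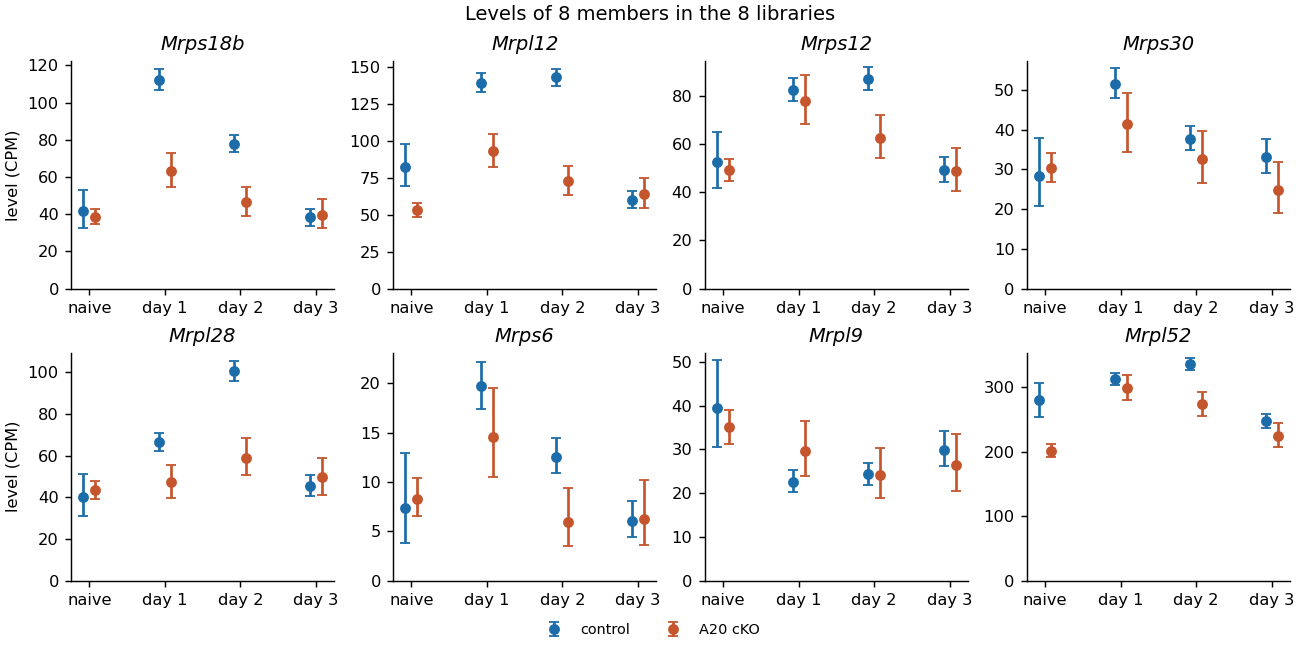
Levels in CPM (y axes, from 0) of 8 members in control (blue) and A20 cKO (orange) libraries, naive and 1 to 3 days after injury (x axes), with 95% exact Poisson intervals for counting error. Mrps18b, Mrps30 and Mrps6 were highest on day 1 in both genotypes, Mrpl28 was highest on day 2 at 101 CPM in control, and Mrpl9 was highest in the naive libraries.

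On day 2 the control library had the highest summed level, 0.40 log2 above naive (0.36 to 0.43) and 0.15 above day 1 (0.13 to 0.16). Compared with naive, 65 of 76 members were above 0, against 42.0% of all genes. Counting intervals lay above 0 for 44 members and below 0 for 1, against 19.9% and 28.2% of all genes. The median log2 ratio of the members was 0.36, and that of all 9279 genes was -0.12. At least 1.5-fold higher were 17 members (22.4%), against 13% of all genes, and 1 (1.32%) was at least 1.5-fold lower, against 19.8%. The TMM shift was 0.21 here, with 37 members (48.7%) past 1.5-fold higher and none lower, against 20.1% and 11.1% of all genes. From day 1 to day 2 the median member was 0.12 log2 higher and the median gene 0.036, and 1 member was past 1.5-fold in each direction (1.32% each), against 8.57% of all genes higher and 4.44% lower.

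Mrpl28 (chromosome 17, 26123500 to 26126613, plus strand), a large subunit protein with a bacterial relative, led the day 2 order. Its control levels, naive to day 3, were 40.1, 66.6, 101 and 45.4 CPM. Its A20 cKO levels were 43.3, 47.2, 59.0 and 49.6 CPM, so day 2 was highest in both genotypes. The day 2 ratio was 1.31 (0.97 to 1.71) in control and 0.45 (0.18 to 0.71) in A20 cKO, and from day 1 to day 2 in control it was 0.59 (0.48 to 0.71), the only member past 1.5-fold higher there. It was under 1.5-fold with TMM factors (0.56), median-of-ratios factors (0.54), mean cell CPM (0.55), without cycling cells (0.43) and without high-UMI cells (0.53). Mrpl51 was at 52.5, 75.5 and 106 CPM in control naive, day 1 and day 2, a day 2 ratio of 1.01 (0.70 to 1.35), and at 60.1 to 77.5 CPM in A20 cKO. Mrpl33 was at 68.5, 96.9 and 132 CPM in control naive, day 1 and day 2 and at 86.8, 137 and 139 CPM in the matching A20 cKO libraries, with day 2 ratios of 0.94 (0.67 to 1.24) and 0.68 (0.51 to 0.85).

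Not all members were highest on day 2. Mrps18b was 0.53 log2 lower than on day 1 (-0.64 to -0.42), Mrps30 0.45 lower (-0.61 to -0.29), and Mrps6, at -0.65 (-0.92 to -0.38), was the only member past 1.5-fold lower, a call lost with thinned cells. Mrpl42, another large subunit protein, was at 88.9, 79.2 and 112 CPM in control naive, day 1 and day 2, with log2 ratios to naive of -0.17 (-0.42 to 0.094) on day 1 and 0.33 (0.089 to 0.59) on day 2. Mrpl9 was 0.71 log2 below naive (-1.09 to -0.30), and Mrps28, a small subunit protein, was at 30.9 CPM in naive and 23.8 on day 2, a ratio of -0.38 (-0.80 to 0.083).

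**Figure D3:**
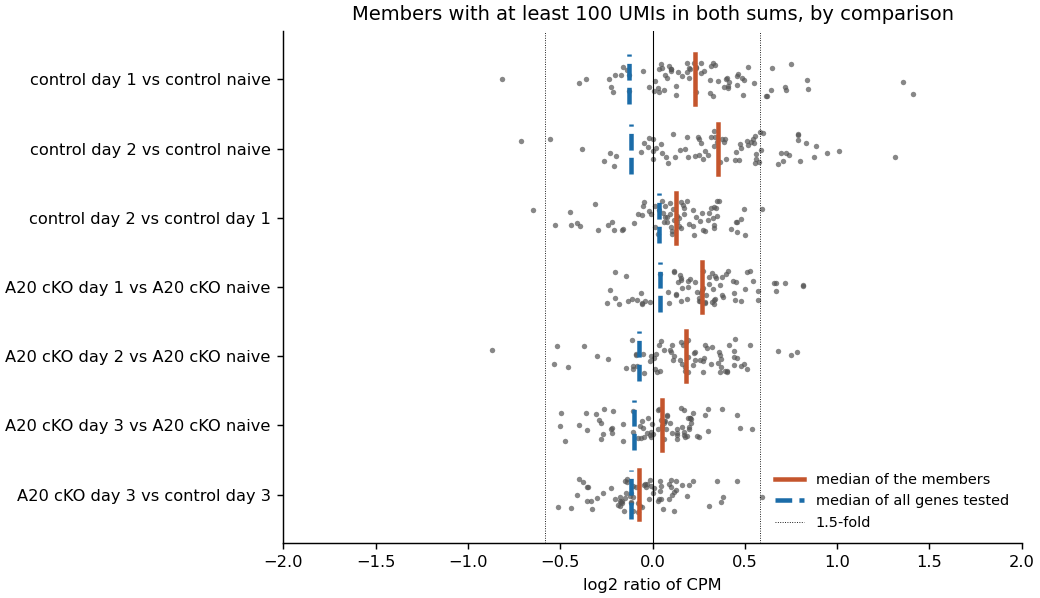
Log2 ratio of CPM (x axis) of each member with at least 100 UMIs in both sums (points, spread vertically for display) in the 7 comparisons within the linked or within the other libraries (y axis), with the median of the members (orange), the median of all genes tested (blue, dashed) and the 1.5-fold lines (dotted). The medians of the members are 0.23 and 0.36 in control day 1 and day 2 against naive, and 0.27, 0.18 and 0.050 in A20 cKO day 1, 2 and 3 against naive.

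In A20 cKO microglia most of the messages were also above naive on days 1 and 2, with day 1 the higher by CPM but day 2 the higher under both other scalings, at 0.21 and 0.24 log2 above naive with TMM factors and 0.25 and 0.28 with median-of-ratios factors. The summed level was 0.28 log2 above naive on day 1 (0.25 to 0.31), 0.20 on day 2 (0.17 to 0.23) and 0.033 on day 3 (0.00012 to 0.065), the last of which turned to -0.026 without cycling cells. Members above 0 were 62 of 76 on day 1, 57 of 75 on day 2 and 43 of 75 on day 3, against 54.3%, 42.7% and 38.5% of all genes. Their median log2 ratios were 0.27, 0.18 and 0.050, beside 0.039, -0.073 and -0.098 over all genes. Within the 4 A20 cKO libraries 42 members were highest on day 1, 25 on day 2, 4 on day 3 and 6 in naive, counts by CPM without the share of all genes. Beside this, the choroid and ependymal genes stood at 126 CPM in A20 cKO naive and 388 to 397 after injury, the microglial marker P2ry12 at 2755 CPM and 845 to 1414, and Tmem119 at 2322 CPM and 1660.1 to 1930. Fcrls was at 512 CPM in naive and 597, 116 and 113 on days 1 to 3, the monocyte genes at 34.5 and 32.7, 83.7 and 57.4, and the oligodendrocyte genes at 150.5 and 202, 196 and 180.2. Of the monocyte genes, Ccr2 was at 1.91 CPM in naive and 2.31, 0.330 and 2.36 on days 1 to 3. The part of these genes was not tested.

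On day 1, 6 members (7.89%) were at least 1.5-fold higher in A20 cKO, against 7.04% of all genes, and none lower, against 5.29%. These were Mrps6, Mrpl12, Mrps18b, Mrps12, Mrpl38 and Mrpl33. Mrpl38, found only in the mitochondrial large subunit, was at 46.0 CPM in A20 cKO naive and 73.0 on day 1, a ratio of 0.67 (0.42 to 0.91), and at 40.7 and 67.4 CPM in control, a ratio of 0.72 (0.37 to 1.11). Mrpl34 was lowest in this order, with 42.5 and 35.7 CPM and a ratio of -0.25 (-0.57 to 0.059).

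On day 2, 3 of 75 members were at least 1.5-fold higher in A20 cKO, against 7.14% of all genes, and 1 (1.33%) lower, against 10.3%. Mrps28 led at 23.2, 33.4 and 39.9 CPM in naive, day 1 and day 2, a day 2 ratio of 0.78 (0.45 to 1.11). In control it was lower than naive on both days, and the difference between the genotypes was not tested. Mrpl54, a large subunit protein found only in mitochondria, was at 35.8, 53.2 and 60.0 CPM, a day 2 ratio of 0.75 (0.48 to 1.01). The member past 1.5-fold lower was Mrps31, of the small subunit, at 26.8, 23.1 and 14.5 CPM, a day 2 ratio of -0.87 (-1.38 to -0.42).

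On day 3, none of the 75 members tested was past 1.5-fold in A20 cKO in either direction, against 5.55% of all genes higher and 9.33% lower. Counting intervals lay above 0 for 7 members and below 0 for 6, against 13.9% and 24.2% of all genes. The largest ratios were those of Mrpl21, at 35.3 CPM in naive and 51.2 on day 3 (0.54, 0.23 to 0.83), and of Mrpl54 (0.47, 0.16 to 0.77). The smallest were those of Mrpl2, a protein next to the peptidyl transferase centre, at 42.6 and 29.9 CPM (-0.50, -0.89 to -0.15), and of Mrps34, at 47.3 and 33.4 CPM (-0.49, -0.85 to -0.16).

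The control and A20 cKO comparisons with naive share no library, and their members can be set side by side. On day 1, 51 of 76 members (67.1%) were above 0 in both genotypes, against 26.2% of the 8449 genes tested in both. Past 1.5-fold higher in both were 5 members (6.58%), Mrpl12, Mrpl38, Mrps12, Mrps18b and Mrps6, against 2.52% of all genes. On day 2, 53 of 75 members (70.7%) were above 0 in both, against 25.7% of 8642 genes. Only Mrpl33 (1.33%) was past 1.5-fold in both on that day, against 3.89% of all genes.

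On day 3 the genotypes could be compared within the linked libraries. The summed level was 0.065 log2 lower in A20 cKO than in control (-0.098 to -0.032), a direction that turned with the scaling, to 0.021 with TMM factors and 0.050 with median-of-ratios factors. The median of 74 members was -0.074, and that of all 8488 genes was -0.12. Mrpl38 (1.35% of the members) was past 1.5-fold higher, against 4.98% of all genes, and none was lower, against 9.91%. Mrpl38 was at 34.2 CPM in control and 51.5 in A20 cKO (0.60, 0.28 to 0.90), and under 1.5-fold with stricter cells (0.57) and without shared barcodes (0.58). Mrps25 was at 27.0 and 37.0 (0.46, 0.082 to 0.81). Lower were Mrps34, at 47.9 and 33.4 CPM (-0.51, -0.88 to -0.17), and Mrpl34, at 47.2 and 34.6 CPM (-0.44, -0.80 to -0.11). A20 cKO naive was 0.098 log2 below control day 3 (-0.12 to -0.075), with no member past 1.5-fold, against 3.64% of all genes higher and 4.84% lower.

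The other comparisons set a linked library against one that is not, so group and library set cannot be told apart. Control day 3 was 0.066 log2 below control naive (-0.10 to -0.028), with 2 members past 1.5-fold in each direction (2.70% each), against 20.3% of all genes higher and 10.3% lower. Against control day 2 it was 0.46 lower (-0.48 to -0.44), with 24 members (31.6%) past 1.5-fold lower, against 10.6%, and 1 higher, against 27.8%. A20 cKO naive was 0.16 log2 below control naive (-0.20 to -0.13), A20 cKO day 1 0.13 below control day 1 (-0.16 to -0.11) and A20 cKO day 2 0.36 below control day 2 (-0.38 to -0.33). In these comparisons, in this order, 5, 4 and 23 members were past 1.5-fold lower, against 9.04%, 10.7% and 14.6% of all genes, and 2, 2 and 3 were higher, against 18.8%, 30.2% and 23.2%. Mrpl1 and Mrps9, chosen after their values were seen, went the other way. Mrpl1 was at 22.4 to 30.4 CPM in the 3 other libraries and 37.5 to 50.2 CPM in the 5 linked ones. Mrps9 was at 23.4 to 36.5 CPM in the others and 46.9 to 54.5 CPM in the linked ones. The share of all genes so separated is not given, so both genes are examples only.

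The ratio of the subunits differed little between libraries. Counting Mrps18a and Mrps30 with the large subunit, where the proteins sit, 50 members belong to the large and 26 to the small subunit. The remaining member, Mrps36, named here only for this reason, is now known as a part of the 2-oxoglutarate dehydrogenase complex and was at 42.9 to 59.4 CPM. Large subunit UMIs were 1.84 times (1.80 to 1.89) those of the small subunit in A20 cKO naive and 2.00 times (1.90 to 2.11) in control naive, the ends of the range over the 8 libraries. Against naive, the large subunit was 0.22 log2 higher in control on day 1 (0.17 to 0.26) and 0.39 on day 2 (0.34 to 0.43), and the small subunit 0.30 (0.24 to 0.36) and 0.42 (0.35 to 0.48). In A20 cKO the large subunit stood at 0.29, 0.23 and 0.073 and the small subunit at 0.25, 0.15 and -0.041 on days 1, 2 and 3.

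Of the members, 46 have bacterial relatives and 30 are found only in mitochondria. On day 1 the summed ratio to naive in control was 0.31 (0.26 to 0.35) for those with bacterial relatives and 0.15 (0.088 to 0.20) for the others, and on day 2 it was 0.46 (0.41 to 0.50) and 0.30 (0.24 to 0.35). In A20 cKO day 1 both stood at 0.28. On day 2 the values were 0.23 (0.20 to 0.27) and 0.14 (0.089 to 0.19).

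The 3 relatives of the bacterial small subunit protein had different orders of levels. Beside Mrps18b, described above, Mrps18a, which sits in the large subunit, had control levels of 51.2, 80.4, 85.9 and 57.6 CPM and A20 cKO levels of 56.5, 62.1, 56.0 and 59.4 CPM, naive to day 3. Mrps18c had control levels of 56.8, 67.3, 85.3 and 53.1 CPM and A20 cKO levels of 54.0, 51.8, 71.9 and 56.3 CPM. The highest library was thus control day 1 for Mrps18b and control day 2 for the other two. The day 1 ratios in control were 1.41 for Mrps18b, 0.64 (0.33 to 0.99) for Mrps18a and 0.24 (-0.065 to 0.57) for Mrps18c, and in A20 cKO 0.72, 0.14 (-0.11 to 0.38) and -0.057 (-0.33 to 0.20). Mrpl45, a protein at the exit of the peptide tunnel, had control levels of 25.3, 32.3, 37.6 and 30.5 CPM and stood at 24.4 to 27.9 CPM in the A20 cKO libraries.

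Dividing cells had somewhat more of these messages than the rest. Cells were called S or G2/M from UMIs of at least 3 core genes, and classes of at least 50 cells were compared. Cells so called were the deeper ones, with a median of 5571 UMIs in G2/M and 3427.5 in the other cells of control day 2, and the part of depth was not tested. The summed level of the members in control day 2 was 5745 CPM (5686 to 5805) in 1061 G2/M cells, 5657 (5551 to 5764) in 404 S cells and 5280.3 (5229 to 5332) in the others. In control day 1 it was 5415 CPM (5314 to 5517) in 365 S cells and 4897 (4858 to 4937) in the others. The log2 ratio to the other cells of the same library lay between 0.053 and 0.30 over 11 such classes, and the interval included 0 in the S cells of A20 cKO day 2 alone (0.053, -0.034 to 0.14). In the cells outside both classes the control levels, naive to day 3, were 4173, 4897, 5280.3 and 3836 CPM and the A20 cKO levels 3697, 4452, 4172 and 3631 CPM, the order of the days found over all cells except that A20 cKO day 3 was below naive. The core G2/M genes together had control levels of 32.1, 26.0, 891 and 755 CPM and A20 cKO levels of 286, 340.1, 1254 and 679.6 CPM, and control day 1 held 8 G2/M cells among 3323.

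Other genes of mitochondrial translation were counted from fixed lists. The 6 mitochondrial ribosome proteins without an Mrp symbol stood at 0.21 log2 above naive in control day 1 (0.084 to 0.34), 0.35 on day 2 (0.22 to 0.48), and 0.32, 0.25 and 0.0027 on the days of A20 cKO. None of them was past 1.5-fold in control on days 1 and 2. Dap3, a small subunit protein that binds GTP, was the only 1 (16.7%) in A20 cKO day 1, at 22.9 CPM in naive and 37.6 on day 1 (0.72, 0.38 to 1.06). In these 3 comparisons 10.6%, 13% and 7.04% of all genes were past 1.5-fold higher and 21.4%, 19.8% and 5.29% lower. The 13 translation factors stood at -0.51 (-0.63 to -0.39) and -0.38 (-0.50 to -0.26) in control. Of 12 tested, 2 (16.7%) were past 1.5-fold higher on each day, against 10.6% and 13% of all genes. Lower were 3 (25%) on day 1 and 2 (16.7%) on day 2, against 21.4% and 19.8% of all genes. Gfm2, a factor that releases ribosomes after termination, weighed most in the sums of the factors. It was at 106 CPM in control naive, 29.6 CPM on day 1 and 30.9 a day later. The A20 cKO values of the factors were 0.038, -0.18 and -0.19.

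The 20 mitochondrial tRNA synthetases and amidotransferase genes stood at 0.016 (-0.11 to 0.15) and -0.070 (-0.20 to 0.062) in control, with A20 cKO values of 0.17, -0.17 and -0.11. Of 17 tested in control, 3 were past 1.5-fold higher and 3 lower on day 1 (17.6% each), against 10.6% and 21.4% of all genes. Rars2, the arginyl-tRNA synthetase, was above naive in both genotypes on day 1 (0.67, 0.12 to 1.33, and 0.65, 0.31 to 0.98). Among genes of this list with a mean of at least 20 CPM, Qrsl1 was lowest on control day 1 (-0.66, -1.08 to -0.19). Its ratio was 0.38 (-0.055 to 0.80) on A20 cKO day 1. The 19 assembly and rRNA maturation genes stood at 0.032 and -0.024 in control, with A20 cKO values of 0.15, -0.096 and -0.24. On control day 1, 2 of 17 (11.8%) were past 1.5-fold higher and 1 (5.88%) lower, against 10.6% and 21.4% of all genes. The 6 genes of mitochondrial DNA transcription and RNA stability stood at 0.026 and 0.14 in control, with A20 cKO values of 0.23, 0.15 and 0.13. Of these 6, 1 (16.7%) was past 1.5-fold higher and none lower on control day 1, against the same shares. A list's median had the other sign than its sum for the translation factors on control day 2 (0.011), the assembly genes on control day 1 (-0.097), the transcription genes on control day 1 and day 2 (-0.14 and -0.21) and the proteins without an Mrp symbol on A20 cKO day 3 (-0.018).

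Summed, the 13 messages encoded in mitochondrial DNA, which the mitochondrial ribosome translates, stood at 0.40 log2 above naive on control day 1 (0.37 to 0.42). The sum stood at 0.78 on day 2 (0.76 to 0.80), and at 0.14, 0.49 and 0.17 in A20 cKO. Of 12 tested on control day 1, 9 were above 0 and 3 below. The highest was mt-Nd1 at 0.69 (0.62 to 0.76) and the lowest mt-Atp8 at -1.75 (-1.90 to -1.60). On control day 2 these 2 genes stood at 1.16 and -1.58. The 86 nuclear genes of oxidative phosphorylation stood at 0.20, 0.57, 0.14, 0.38 and 0.24 in the same order. Of 78 tested in control, 10 (12.8%) were past 1.5-fold higher on day 1 and 38 (48.7%) on day 2, against 10.6% and 13% of all genes. Lower were 1 (1.28%) on day 1 and none on day 2, against 21.4% and 19.8% of all genes. The 82 cytosolic ribosomal proteins stood at 0.11, 0.45, 0.20, 0.39 and 0.38. In A20 cKO these 3 lists were higher on day 2 than on day 1, while the members stood at 0.28 and 0.20 by CPM, at 0.21 and 0.24 with TMM factors and at 0.25 and 0.28 with median-of-ratios factors.

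**Figure D4:**
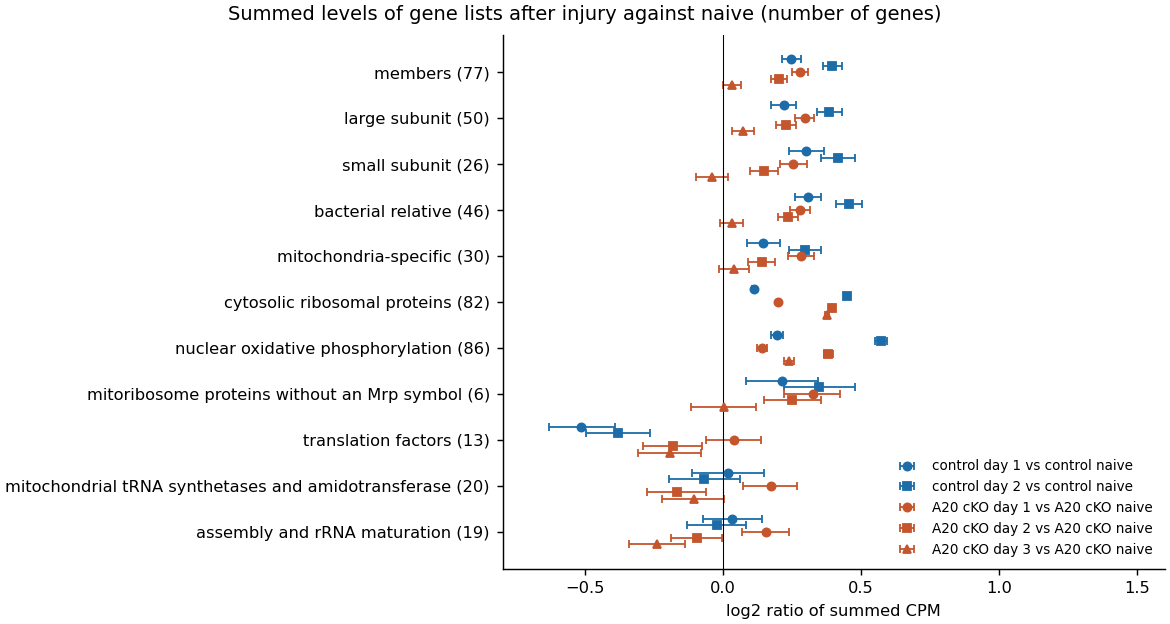
Log2 ratio of summed CPM against the naive library of the same genotype (x axis) for the members, their subsets and other gene lists (y axis, number of genes in parentheses), with 95% exact intervals for counting error, in control day 1 and 2 (blue circles and squares) and A20 cKO day 1, 2 and 3 (orange circles, squares and triangles). The control values of the members are 0.25 and 0.40 and their A20 cKO values 0.28, 0.20 and 0.033, while the translation factors stand at -0.51 and -0.38 in control.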

How the data were processed

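RNA of YFP-sorted lumbar microglia was counted in 8 single-cell libraries made with 10x Genomics 3′ chemistry, for which the labels and the methods name different kit versions. The authors deposited raw counts of UMIs for each gene in each barcode, made with Cell Ranger 2.1.1 on mm10 per the submitters' processing notes, already limited to called cells. Whether strand was used in counting is not stated in the labels or methods, so the 34 of 77 members that overlap another gene are uncertain. Of the 27998 gene IDs, 27722 matched GENCODE M21 (GRCm38), among them all 77 members, and coordinates are from there.

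Cells with at least 1000 UMIs, 500 genes and at most 10% mitochondrial UMIs were kept. The study's methods name doublet exclusion in the sort, before the libraries were made. No doublet caller was run, so doublets formed later were not looked for. Counts were summed per library, and 0.5 UMIs were added for log2 ratios. Genes with at least 100 UMIs in the 2 sums together were compared, and a ratio of 1.5 was the fold named. Each group had 1 library, so no test was run. Intervals are exact Poisson or exact conditional intervals at 95% and cover counting error only. Named members were the 2 highest and 2 lowest ratios per comparison at a mean of at least 20 CPM, and the 5 highest and 3 lowest means. Also named were Mrpl12, Mrps12, Mrps18a, Mrps18b, Mrps18c, Mrps30, Mrpl10 and Mrpl45. Apart from Sars2, genes of the other lists were named from the highest and the lowest ratio of each list at the same mean, and not all of these are printed. Members, lists and rules were chosen with earlier results of these data known. Scripts were tested on simulated data. Alternatives were other cell filters, TMM factors (edgeR 4.0.16), median-of-ratios factors, a total without mitochondrial and cytosolic ribosomal genes, mean cell CPM, thinning to 2000 UMIs, and leaving out shared barcodes, cycling cells or cells above 2 times the median UMIs. The gene counts also used a minimum of 300 UMIs and none. Python 3.11.15, numpy 2.4.6, scipy 1.17.1, pandas 2.3.3 and R 4.3.3 were used.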

Additional observations from a re-analysis of the deposited data

Results flagged for a closer look

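The summed level of the members on day 3 stood on opposite sides of naive in the 2 genotypes, at -0.066 log2 in control day 3 and 0.033 log2 in A20 cKO day 3. The difference was not tested, since each group is 1 library, and the control value sets a linked library against one that is not.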

How the results depend on the processing

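No paired analysis was possible because each group was 1 library, and for the same reason no library could be left out. The directions of the summed level on days 1 and 2 against naive held in both genotypes under all 10 alternatives tried. TMM factors shifted every log2 ratio of control day 1 and day 2 to naive by 0.24 and 0.21, and median-of-ratios factors by 0.18 and 0.13. The summed levels became 0.49 and 0.43 on day 1 and 0.60 and 0.53 on day 2. Members past 1.5-fold became 26 and 24 (from 12) on day 1 and 37 and 31 (from 18) on day 2. All were higher but 1, on day 1 with median-of-ratios factors. Of all genes, 18.9% and 16.4% were then higher on day 1 (from 10.6%) and 20.1% and 16.9% on day 2 (from 13%). Lower were 11.5% and 13.3% on day 1 (from 21.4%) and 11.1% and 13.8% on day 2 (from 19.8%). In the order TMM, median-of-ratios, the summed level was 0.11 and 0.095 from control day 1 to day 2, 0.21 and 0.25 on A20 cKO day 1, 0.24 and 0.28 on day 2 and 0.092 and 0.14 on day 3, and 0.021 and 0.050, reversed, in A20 cKO day 3 against control day 3. In A20 cKO both scalings thus put day 2 above day 1. With the total without mitochondrial and cytosolic ribosomal genes it was 0.46 in control day 2 against naive, 0.19 against day 1, 0.26 and 0.081 on A20 cKO day 2 and day 3, and -0.031 between the genotypes on day 3. Without cycling cells it was 0.34 in control day 2 against naive, 0.11 against day 1 and -0.026, reversed, on A20 cKO day 3. Thinned cells gave 0.11 on A20 cKO day 2.

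Small counts moved more. From control day 1 to day 2, where 2 members were past 1.5-fold, 1 was left with either scaling, mean cell CPM, thinned cells, without cycling cells and without high-UMI cells. On A20 cKO day 3 (0) it was 1 with either scaling, the reduced total, mean cell CPM and without cycling cells, and 4 with thinned cells. Between the genotypes on day 3 (1) it was 0 with stricter cells and without shared barcodes, 2 with no minimum, 3 with thinned cells and 3 without cycling cells. The split into higher and lower moved to 8 and 2 on control day 1 and 3 and 3 on A20 cKO day 2 with thinned cells, and to 3 and 0 on A20 cKO day 2 with a minimum of 300 UMIs. From control day 1 to day 2 it moved from 1 and 1 to 1 and 0 with thinned cells and to 0 and 1 under the other settings named, and between the genotypes on day 3 from 1 and 0 to 2 and 1 with thinned cells and 1 and 2 without cycling cells. Of 280 values of named members under the alternatives, 275 moved by less than their counting interval, 5 moved further and none reversed. The causes were not tested.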
